A study of Chlamydomonas reinhardtii with 3 samples.

Results

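The 10 genes described here encode enzymes of chlorophyll synthesis, or in the case of GUN4 a regulator of it, in the green alga Chlamydomonas reinhardtii. They were taken by locus identifier from a list of pathway genes, a rule that uses no methylation value, and all 10 had a level among the 17326 genes with one. Cytosine methylation had been measured by whole-genome bisulfite sequencing, in which unmethylated cytosine is converted and read as thymine while methylated cytosine is still read as cytosine. There were 1 library of wild type cells and 2 libraries of cells with the genotype cmd1 KO, all of strain CC125. All cultures were grown mixotrophically at 25 °C under dim light (20 μmol photons·m-2·s-1). They were then moved to Sueoka's high salt medium and 300 μE, which the labels call high light, so no library stands for low light. The labels do not say whether the cmd1 KO libraries came from separate clones or cultures.

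The study asked whether cytosine methylation changes without CMD1. CMD1 is an algal relative of the TET dioxygenases, which oxidise methylcytosine in animals, and it joins a carbon unit from vitamin C to the methyl group of methylcytosine. Chlorophyll is built from glutamate through aminolevulinic acid and protoporphyrin. Insertion of magnesium into protoporphyrin commits the intermediate to chlorophyll and away from haem, and methylation, closure of an additional ring and a light-driven reduction follow. Free intermediates of the pathway produce reactive oxygen in light, and the flow through it is tightly controlled in algae and plants.

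The table gives 1 level and 1 number of sites per gene for each genotype, and the cmd1 KO libraries share 1 value. No difference has a replicate check, so neither a change in a gene nor an order of the genes can be set against a spread, and no test between genotypes was possible. Over all genes the authors listed 1454118 sites for wild type but 516767 for cmd1 KO. The lists behind the levels were unlike. In all 33 genes at 0% in wild type, p in the authors' deposited table equalled, within a relative 1e-06, the rank-sum p for distinct cmd1 KO levels of which 1 was 0. If each distinct level was kept once in cmd1 KO, zeros are under-represented there and the cmd1 KO mean is too high wherever most sites are unmethylated. This limit holds for every cmd1 KO level and difference below, and how much of a difference it accounts for was not tested.

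All 10 chlorophyll synthesis genes were sparsely methylated in wild type, and each had a higher deposited level in cmd1 KO. Their levels ran from 0.68% to 1.54% in wild type, around a median of 1.10%, and from 4.49% to 8.33% in cmd1 KO, around a median of 6.51%. Each cmd1 KO level was above all wild type levels of the 10, but these are levels of different genes and not replicates. Across all genes the upper quartile was 1.37% in wild type and the lower quartile 5.03% in cmd1 KO. The medians over all genes were 1.05% and 5.89%. Of all genes, 99.1% stood higher in cmd1 KO, so that the direction in all 10 members is near the background. Their differences ran from 3.79 to 7.55 percentage points with a median of 5.15 points, against 4.73 points over all genes. Of the members, 6 of 10 were higher by at least 5 points, as were 41.7% of all genes. None of the 10 was higher by at least 10 points, as were 3.50% of all genes.

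**Figure D1:**
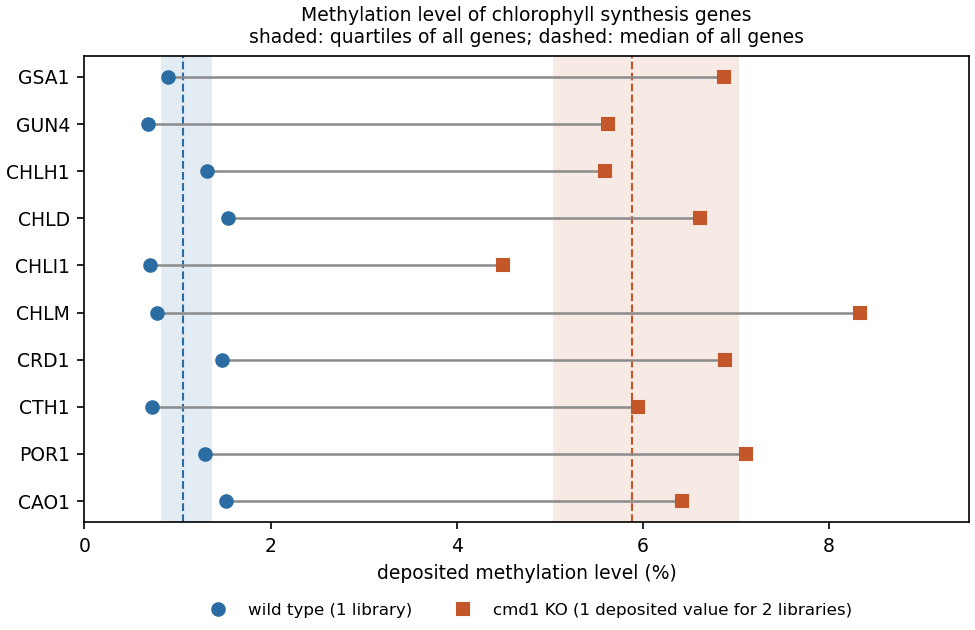
Deposited methylation level in percent (x axis) of each member (y axis) in wild type (circles) and cmd1 KO (squares). Dashed lines are medians and shaded bands quartiles over all 17326 genes. All 10 squares lie right of all circles, CHLM farthest at 8.33%, and CHLI1 is the member left of the cmd1 KO band, at 4.49%.

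The first of the genes in the pathway is GSA1 (Cre03.g158000), which encodes glutamate semialdehyde aminotransferase, the enzyme that yields aminolevulinic acid. GSA1 stood at 0.90% across 89 listed sites in wild type and at 6.87% across 24 in cmd1 KO. Its difference of 5.97 points was the second of the 10 in size and exceeded that of 79.1% of all genes.

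The 2 smallest differences of the 10 belonged to magnesium chelatase genes, CHLI1 and CHLH1. CHLH1 (Cre07.g325500) encodes the large subunit that binds the porphyrin, and it stood at 1.32% across 122 listed sites in wild type and 5.60% across 29 in cmd1 KO. Its wild type level was above that of 71.9% of all genes, but its difference of 4.28 points exceeded that of only 36.0%. CHLI1 (Cre06.g306300) encodes an ATPase subunit that drives the insertion. CHLI1 stood at 0.70% across 55 listed sites in wild type and 4.49% across 15 in cmd1 KO. Both the cmd1 KO level and the difference of 3.79 points were the lowest of the members, and the difference exceeded that of 21.1% of all genes. CHLI1 also had the shortest cmd1 KO list of the members.

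CHLD (Cre05.g242000) encodes the subunit that joins CHLI and CHLH in the active complex. CHLD stood at 1.54% across 54 listed sites in wild type, the highest wild type level of the 10, and 6.61% across 34 in cmd1 KO. The difference of 5.07 points was larger than in 60.1% of all genes. GUN4 (Cre05.g246800) encodes a porphyrin-binding protein that stimulates the chelatase. GUN4 had the lowest wild type level of the 10, 0.68% across 74 listed sites, and reached 5.62% across 24 in cmd1 KO, a difference of 4.94 points. The chelatase genes thus ran from 3.79 to 5.07 points. CHLD was past 5 points, as were 41.7% of all genes, and GUN4 lay just short of that size.

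The next enzymes methylate magnesium protoporphyrin and close its additional ring. The 3 listed genes for these steps were past 5 points, as were 41.7% of all genes. With 1 value per genotype, no contrast between steps of the pathway was tested. CHLM (Cre12.g498550) encodes the methyltransferase. CHLM stood at 0.78% across 122 listed sites in wild type and at 8.33% across 30 in cmd1 KO. Its wild type level exceeded that of only 21.3% of all genes, whereas its cmd1 KO level exceeded 86.6%, and its difference of 7.55 points, the largest of the 10, exceeded 91.7%. The authors' deposited table gives CHLM a fold of 10.7, also the largest of the members.

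CRD1 (Cre07.g346050) and CTH1 (Cre12.g510050) encode alternative forms of an aerobic ring cyclase subunit. In this alga CRD1 is the form of copper- or oxygen-poor cells and CTH1 the form of copper-replete, aerated cells. CRD1 stood at 1.48% across 91 listed sites in wild type and 6.89% across 29 in cmd1 KO. CTH1 stood at 0.73% across 136 listed sites in wild type and 5.95% across 25 in cmd1 KO. CTH1 was thus the lower form in both genotypes, but the differences of 5.41 points in CRD1 and 5.22 points in CTH1 lay close together. The folds in the authors' deposited table, 4.66 and 8.18, lay apart because a fold divides by the wild type level. Whether the 2 forms share reads was not tested.

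The last genes act on protochlorophyllide and chlorophyllide. POR1 (Cre01.g015350) encodes the light-dependent protochlorophyllide reductase, which works beside a light-independent enzyme encoded in the chloroplast. POR1 stood at 1.29% across 149 listed sites in wild type and 7.11% across 45 in cmd1 KO, the longest list of the members in both genotypes. At 5.81 points, its difference was larger than in 76.6% of all genes. CAO1 (Cre01.g043350) encodes the oxygenase that makes chlorophyll b, the accessory pigment of the light-harvesting antennae. CAO1 stood at 1.52% across 80 listed sites in wild type and 6.42% across 31 in cmd1 KO. At 4.90 points, its difference was larger than in 55.3% of all genes, and its fold of 4.23 was the smallest of the members in the authors' deposited table.

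**Figure D2:**
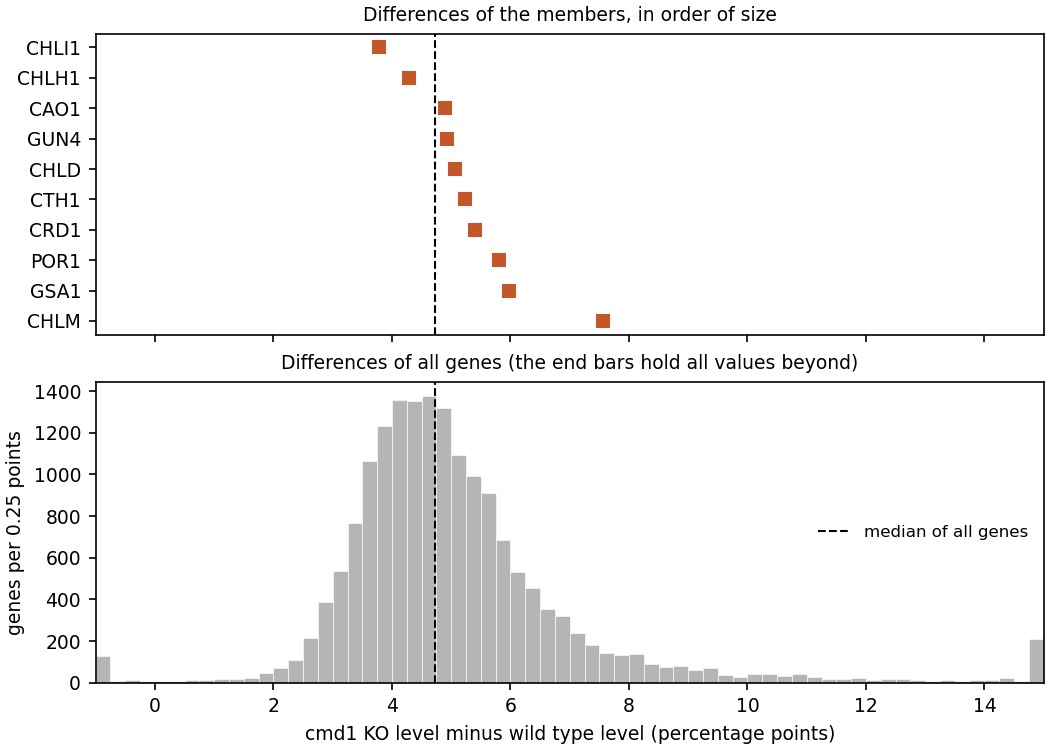
Upper panel, difference of each member (squares) in percentage points, ordered by size. Lower panel, number of genes per bin of the same difference for all 17326 genes, with their median as a dashed line. CHLI1 at 3.79 and CHLH1 at 4.28 points lie left of the median, and CHLM at 7.55 points lies in the right tail.

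In wild type the members fell on either side of the median of all genes. GUN4, CHLI1, CTH1, CHLM and GSA1 ran from 0.68% to 0.90%, and POR1, CHLH1, CRD1, CAO1 and CHLD from 1.29% to 1.54%. The order was not kept in cmd1 KO. Between the wild type and cmd1 KO levels of the 10 members, Pearson's r was 0.23 and Spearman's rho 0.32, while across all genes r was 0.91 and rho 0.43. The values of r cover unlike ranges, since wild type levels reach 81.0% over all genes but only 1.54% in the members. The wild type level and the difference, which contains it, had a rho of 0.02 across the members and 0.06 across all genes. These correlations are across genes that share the same libraries and describe the tables only.

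After Benjamini-Hochberg adjustment over all genes, p-values from the authors' deposited table were under 0.05 for all 10 members. They ranged from 3.36e-17 for CHLM to 3.82e-08 for CHLI1. Of all genes, 97.6% were higher in cmd1 KO and passed that threshold, so the 10 of 10 is near the background. The test behind the deposited p is not stated. The match to a rank-sum p over lists of sites was made in the 33 genes at 0% in wild type, none of them a member, and whether it holds for the members was not tested. With 1 value per genotype, this p has no replicate libraries to rest on in the table.

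In every member the cmd1 KO list was shorter than the wild type list, as it was in 16698 of all genes. Relative to wild type, the cmd1 KO site number ran from 0.18 in CTH1 to 0.63 in CHLD, with a median ratio of 0.29 against 0.31 over all genes. CHLD stood apart from the other members, with a ratio above that of 93.4% of all genes, because its wild type list was short at 54 sites while its cmd1 KO list of 34 was the second longest. All deposited levels times their site numbers were whole multiples of 0.001, within 1e-06, which limits how many distinct levels a list can hold. The wild type lists of the members, 54 to 149 sites long, could hold from 28 distinct levels in CHLI1 to 62 in POR1, so all 10 had repeated levels. So did the wild type lists of 15822 of all 17326 genes. The cmd1 KO lists, 15 to 45 sites long, had room for 37 to 80 distinct levels, so none of the 10 needed a repeat. A repeat was needed in cmd1 KO in 0 of all genes, so both counts are near the background.

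The summed level, which is the deposited level as a fraction times the listed sites, takes no denominator and gains nothing from further sites at 0. It was higher in cmd1 KO in all 10 members and in 92.9% of all genes. CHLH1 was nearly level, with a sum of 1.61 in wild type against 1.62 in cmd1 KO, a ratio of 1.01 that exceeded only 7.54% of all genes. The CHLH1 lists held 122 and 29 sites, and whether this accounts for its difference in means was not tested. At the other end, CHLD had sums of 0.834 and 2.25, a ratio of 2.70. GUN4 had sums of 0.506 and 1.35, and CHLM 0.951 and 2.50, with ratios of 2.67 and 2.63. These 3 ratios exceeded those of 83.6% to 84.8% of all genes. GSA1 followed with a ratio of 2.06, and the other members lay between 1.48 in CRD1 and 1.74 in CHLI1. The median ratio of the 10 was 1.70, against 1.71 over all genes with a wild type level above 0. A sum grows with the number of sites covered and loses any repeated level that was left out, so against wild type a cmd1 KO sum can be too high or too low.

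**Figure D3:**
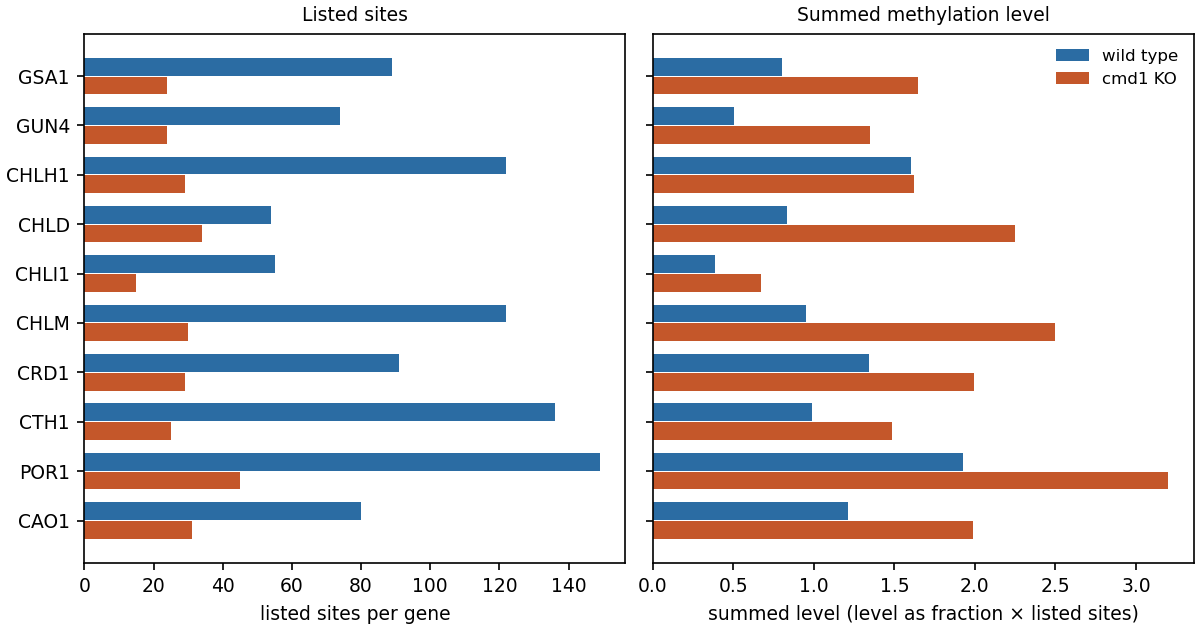
Listed sites per gene (left) and summed level (right, level as a fraction times listed sites) of each member in wild type and cmd1 KO. The cmd1 KO bars are shorter than the wild type bars on the left for all 10 members and longer on the right, though in CHLH1 by only 1.62 against 1.61.

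A ratio of sums also gives the number of cmd1 KO sites, relative to wild type, at which the levels of a member would be equal. With the wild type number of sites in both genotypes, the difference was 0.014 points in CHLH1 and 2.62 points in CHLD, and it was above 0 in all 10 and in 92.1% of all genes. CHLM, with the largest deposited difference, then stood 1.27 points above wild type and GUN4 1.14 points. In heavily methylated genes, at 40% or more in wild type, the cmd1 KO list was longer than the wild type list by a median factor of 1.52. With that factor, 7 of 10 members and 62.9% of all genes were above wild type, so the members were near the background. The 3 others were CHLH1 at -0.44 points, CRD1 at -0.035 and CTH1 at -0.0080. Missing sites count as 0 here, so these are lowest possible values for an assumed number of sites and show no lower methylation.

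**Figure D4:**
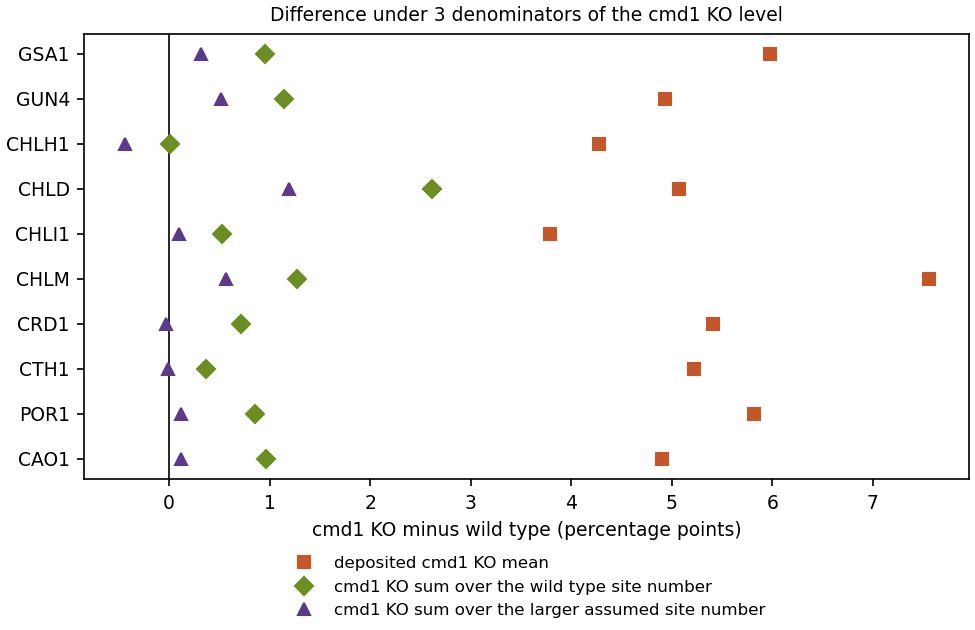
Difference between cmd1 KO and wild type in percentage points (x axis) for each member with the deposited mean (squares), with the summed cmd1 KO level over the wild type site number (diamonds) and over 1.52 times that number (triangles). The squares lie at 3.79 to 7.55 points, the diamonds at 0.014 to 2.62, and CHLD is the rightmost member in the last 2.

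The genes lie on 6 chromosomes, and none is adjacent to another member. The adjacent genes were also low in wild type, from 0.61% to 1.85%, and stood at 4.56% to 9.66% in cmd1 KO. All 20 adjacent genes were higher in cmd1 KO, by a median of 5.20 points, and 16 of 20 by at least 5 points, against 6 of the 10 members and 41.7% of all genes. CHLM, on chromosome 12, was 7.55 points higher between neighbours that were 5.03 and 4.47 points higher. CHLH1, on chromosome 7, was 4.28 points higher between neighbours at 5.96 and 6.72 points. CHLD, on chromosome 5, matched its neighbours, with 5.07 points against 5.06 and 5.04. In all, 4 members were above both neighbours, 5 below both and 1 between. Among 16578 genes with levels on both sides these places held 33.0%, 33.0% and 34.1%. Some places rest on small gaps that cannot be set against a spread. CHLD counts as above both, as does GSA1 with 5.97 against 5.82 points on its nearer side. GUN4 counts as below both with 4.94 against 5.12 points. The sources used here do not say whether the regions of adjacent genes share sites.

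**Figure D5:**
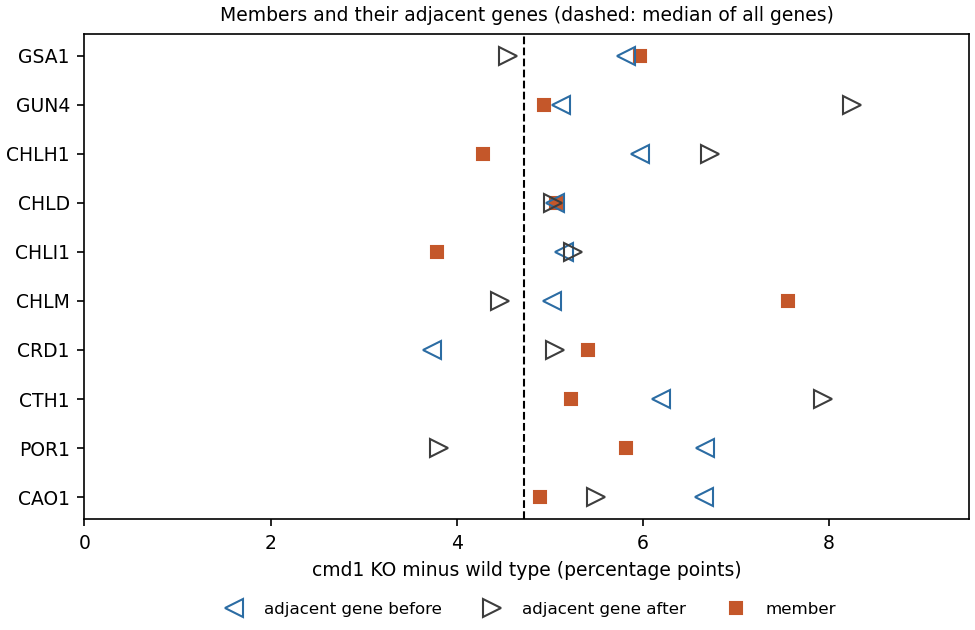
Difference between cmd1 KO and wild type in percentage points for each member (squares) and the adjacent genes before and after it in the reference order (triangles), with the median of all genes as a dashed line. CHLM lies right of both neighbours by over 2 points, and CHLH1, CHLI1, CTH1, CAO1 and GUN4 lie left of both.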

How the data were processed

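The deposited table holds 17527 entries, of which 201 without a level were left out. Per the file headers it gives, for each gene and genotype, a count of sites and a methylation level as a fraction. Its other columns, computed by the authors, are a signed score of the difference, the same relative to wild type, a fold, and a p-value. The tools named, per the submitters' processing notes, are BSMAP, Trimmomatic 0.36 and FastQC 0.11.5. The sources used here give no genome build, annotation, coverage minimum, cytosine context, region per gene or test behind the p-values. The read depth behind each level is thus unknown, and no interval of a level can be given.

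Levels were turned into percent, and the difference was taken as cmd1 KO minus wild type. The summed level is the deposited level, as a fraction, times the listed number of sites. Each member was ranked among all 17326 genes. Benjamini-Hochberg adjustment over these genes was applied to the deposited p-values. Genes were ordered by the RefSeq table of assembly Chlamydomonas_reinhardtii_v5.5, which holds no gene symbols, so the names of the members are those of the list that chose them. The list of other genes of the pathway was dropped for that reason, and no sequence was used. All 10 members are named, and an adjacent gene was to be named only at a level of 10% or more. The members, the sizes of 5 and 10 percentage points and the alternatives were chosen with earlier results of these data known. Functions were checked on simulated data. Python 3.11.15, pandas 2.3.3 and scipy 1.17.1 were used.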

Additional observations from a re-analysis of the deposited data

How the results depend on the processing

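The median difference of the 10 genes was 5.15 percentage points as deposited. It was 0.90 points when the cmd1 KO sum was spread over as many sites as wild type had, where that was more, and 0.12 points with 1.52 times as many (0.74 and 0.13 over all genes). After each column was centred on its own median over all genes it was 0.31 points, against -0.106 over all genes. With at least 20 sites in both columns, which leaves out CHLI1, it was 5.22 points, against 4.72 over all genes. The number of members higher by at least 5 points was 0 with either denominator, near the 3.29% and 1.39% of all genes, and 0 were higher by 10 points, near the 3.50% of all genes. With at least 20 sites in both columns, 6 of 9 members were higher by at least 5 points, against 40.6% of all genes. At the factor of 1.52, CHLH1 stood at -0.44, CRD1 at -0.035 and CTH1 at -0.0080 points. The number of members higher in cmd1 KO was 10, 7, 8 and 9 (of 9) under these alternatives in the order given. Of all genes, 92.1%, 62.9%, 46.8% and 98.7% were higher in the same order. After centring, a member counts only if its difference exceeded that between the medians of all genes. All 10 had a higher deposited level in cmd1 KO. The number higher in cmd1 KO was also 10 by summed levels, an alternative chosen after seeing the data. All 10 members have fewer cmd1 KO sites, so for them this repeats the comparison over the wild type site number. The denominators lower the cmd1 KO level by construction. No replicate could be left out, since the cmd1 KO libraries share 1 column. No paired analysis was possible because the table gives 1 value per genotype.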
